A study of Macaca mulatta with 23 samples.

Results

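The imprinted domains of human chromosome band 11p15.5 were examined in DNA of the central nucleus of the amygdala, a main output station of the amygdala, from 23 young rhesus monkeys (Macaca mulatta). Levels came from reduced representation bisulfite sequencing, which reads cytosine methylation in the CpG-rich fragments left by the enzyme MspI. Members were all measured positions inside 2 windows of the human build hg19, chr11:2010000-2180000 and chr11:2465000-2910000. The first window holds H19, its control region (chr11:2019000-2024700) and IGF2. The second holds KCNQ1, the KvDMR (chr11:2719900-2722300) and CDKN1C. Members were taken by position alone, from windows chosen with earlier results of these data known, and numbered 616 of the 444312 positions of the deposited table. Of these, 613 fell into 47 runs; a run was 3 or more neighbouring positions, none farther than 200 bp from the next. No position used here lay inside the KvDMR, so that control region was not analysed here. Right hemispheres gave 12 of the samples and left hemispheres 11, with 1 hemisphere per monkey. Each monkey had an anxious temperament score, from -1.48 to 1.43, and an age, from 1.1 to 2.13 years. No treatment, strain or genotype is given for the monkeys, and the score is a continuous trait with no control group.

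In an imprinted domain the maternal and the paternal copy of a gene differ in activity, and a control region carries methylation on one of the copies. In the H19 domain the control region is methylated on the paternal copy. On the maternal copy it is unmethylated and bound by the insulator protein CTCF, so that the long noncoding RNA H19 is made from the maternal copy and the growth factor IGF2 from the paternal one. In the KCNQ1 domain the KvDMR is the promoter of the noncoding RNA KCNQ1OT1 and is methylated on the maternal copy. KCNQ1OT1 silences neighbouring genes of the paternal copy, among them CDKN1C, a cyclin-dependent kinase inhibitor that restrains cell division. KCNQ1 encodes a voltage-gated potassium channel subunit. In the macaque gene table at hand, of another genome build, H19, IGF2, KCNQ1 and CDKN1C follow each other in the same order on macaque chromosome 14.

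Levels are methylated shares in percent, set by the authors and rounded to whole percents. Read counts do not accompany them, and the depth behind each level is therefore unknown. Right 9 stood apart in the windows: 41.9% of its values at positions of intermediate mean level were exactly 0 or 100%, against 0% to 4.62% in the 21 libraries other than right 9 and left 3. Of the 616 positions, 41.1% were missing in left 3 and 18% in right 9, with a median of 2.27% over the libraries. Right 9 was also the lowest monkey in 7 and the highest in 8 of the 37 runs in which it had a level. A run level was the mean over the positions a monkey had, and was kept where it had at least 50% of the run's positions. The tissue is a mixture of cells, and a shift in the mixture cannot be told apart from a shift within cells.

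The windows held more positions of intermediate level than the rest of the table. Of the 616 members, 28.1% had a mean level between 20% and 80%, against 18% of all other positions and 18.3% of the other positions of chromosome 11. Members over 80% made up 11.7%, against 21.1% of the other positions. The share under 20% was 60.2% in the windows and 60.9% elsewhere. Of the 47 runs, 31 averaged between 20% and 80%, 15 were lower and 1 was higher. The intermediate runs made up 66% of the member runs, against 57.7% of the other runs. These shares compare different sets of positions, not matched for CpG density, and are given without a test.

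Along the H19 window the level was lower in the control region than on its H19 side. On the H19 side of the control region, 33 positions averaged 64.8% ± 4.14 (SD, n = 23), with monkeys between 56.6% and 75.3%. The highest was left 3, which had 18 of the 33 positions and no level in 3 of the 4 runs there; without right 9 and left 3 the range was 56.6% to 72.7%. The 31 positions of the control region averaged 21.7% ± 11.7 (SD, n = 23), and the monkeys ran from 5.65% to 40.5% with a median of 17.7%. On the IGF2 side, 129 positions averaged 13.2% ± 2.15 (SD, n = 23). In the KCNQ1 window, the 81 positions at coordinates below the KvDMR averaged 22.4% ± 2.87 (SD, n = 23), and the 342 positions beyond it 28.8% ± 2.3 (SD, n = 23). Each monkey's mean in the H19 side lay above every monkey's mean in the control region, while the other stretches overlapped the control region. Left 3 was also the lowest monkey in the last 3 of these stretches. It had 94 of 129, 54 of 81 and 177 of 342 positions there. Its mean at the member positions with a value in every monkey was 19.6%, against 19.8% ± 1.07 (SD, n = 23) over monkeys. Without right 9 and left 3 the IGF2 side averaged 13.6% ± 1.29 (SD, n = 21). The control region had the widest spread between monkeys of these 5 stretches, also without right 9 and left 3 (SD 11.7 points, n = 21), as the plot of run levels shows. That spread came with the 12-position run described next, which has no position with a value in all 23 monkeys. At the positions with a value in every monkey, the control region (8 of 31 positions, none of them in the 12-position run) averaged 10% ± 2.16, the H19 side 74.9% ± 2.55 and the IGF2 side 5.36% ± 0.782 (SD, n = 23 each), and the control region was then not the stretch of widest spread.

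**Figure D1:**
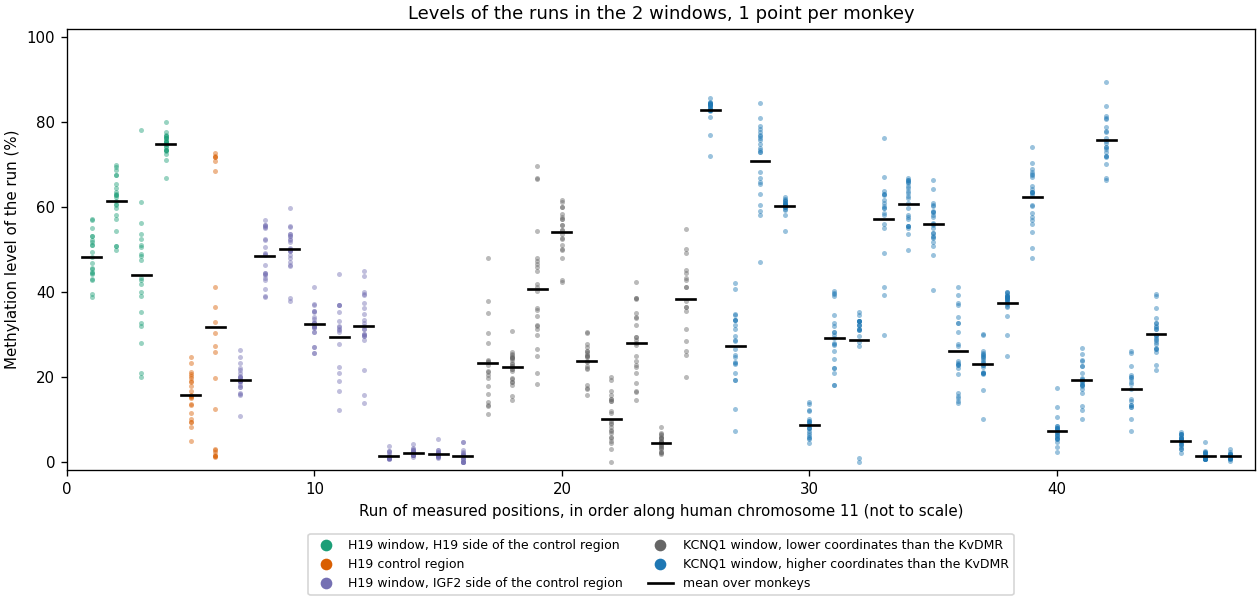
Methylation level (%) of each of the 47 runs, in order along human chromosome 11, with 1 point per monkey and a bar for the mean over monkeys. Of the 2 runs of the H19 control region, the one at higher coordinates spans 1.08% to 72.7% and the other 4.88% to 24.8%.

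The widest spread lay in a run of 12 positions inside the H19 control region, at chr11:2021948-2022065. Its level averaged 31.8% ± 28.6 (SD, n = 21), with a lowest level of 1.08% in right 8, a median of 27.2% and a highest level of 72.7% in right 3. Among the other 25435 runs of the table with a level in at least 20 monkeys, 2 had a larger SD, and none of the other 12812 with 10 or more positions did. The SD was 29.2 points without right 9 and left 3.

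Within this run, 9 positions varied together and 3 did not. At the 9 positions from 2021961 to 2022065, a stretch of 105 bp, the mean over monkeys was between 37.8% and 45.1% at each position. Averaged over these 9, a monkey stood anywhere between 1.33% and 96.2%, with a median of 36% and an SD of 37.8 points (n = 21). Inside a monkey the 9 positions lay close together: the SD over them had a median of 2.05 points and was 7.92 at most. The smallest SDs were those of left 3, where the 9 positions ran from 43% to 45%, and left 11, from 15% to 17%. The largest was that of left 8, from 0% to 24%. The 3 positions just before them, the last of which lies 2 bp from the first of the 9, averaged 1.17% and reached 11% at most in any monkey. The split into 9 and 3 positions was made after their values were seen, at a mean of 20%.

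The levels at the 9 positions left a wide gap. In 7 monkeys the mean over the 9 was 3.67% or less. In 8 monkeys it was between 16.3% and 54.7%, and in 6 it was 90.9% or more, with no monkey between 54.7% and 90.9%. Left 1 had values at 2 of the 9, of 45% and 50%, and right 10 had none, so both were left out of these counts. Both hemispheres spanned nearly the whole scale. Right samples ran from 1.33% to 96.2% with a median of 48.3% (n = 11), and left samples from 1.78% to 94.8% with a median of 25.2% (n = 10). Monkeys with identifiers starting with r ran from 1.78% to 94.9% (n = 12) and those starting with B from 1.33% to 96.2% (n = 9), with medians of 38% for r and 16.3% for B. The sources used here do not say what these identifiers stand for.

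**Figure D2:**
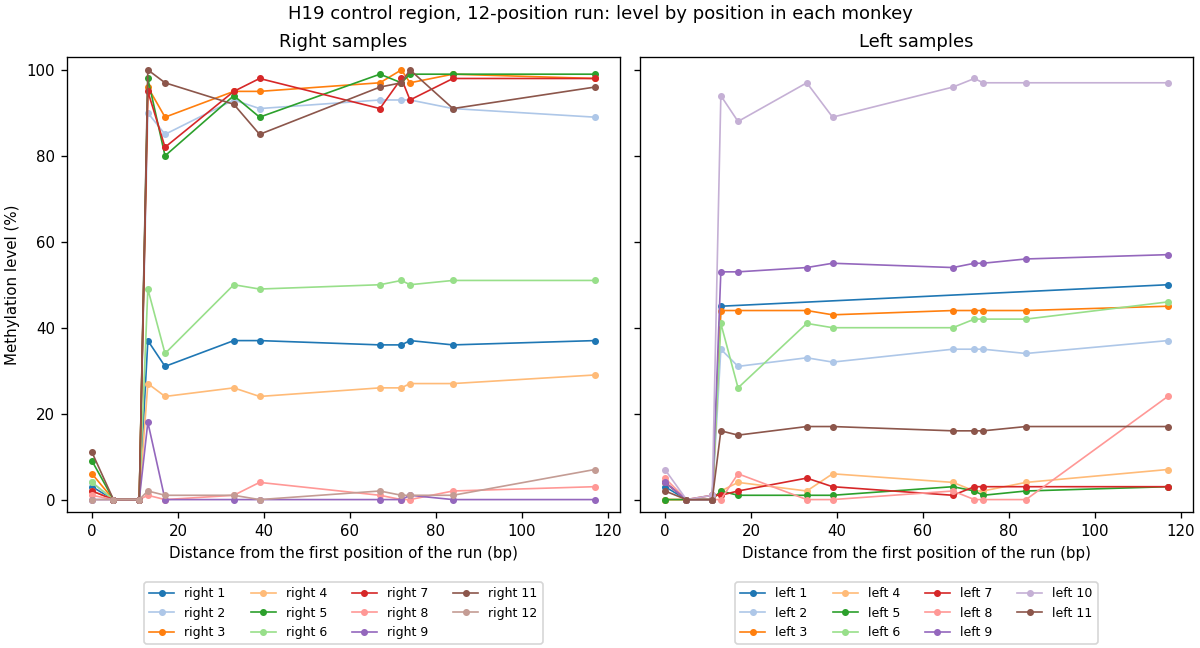
Methylation level (%) at each position of the 12-position run of the H19 control region against the distance (bp) from its first position, with 1 line per monkey, right samples on the left panel and left samples on the right panel. The first 3 positions stay at 11% or less in every monkey, and the next 9 run nearly flat within most monkeys at levels between 1.33% and 96.2% on average.

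The other run of the H19 control region, at chr11:2019090-2019285, lay 2663 bp away at the H19 end and had a narrower spread. Its 19 positions averaged 15.7% ± 5.2 (SD, n = 22), from 4.88% in right 4 to 24.8% in right 6, with a median of 15.7%. Of the other 25435 runs, 7768 (30.5%) had a larger SD. Levels in this run depend partly on which positions a monkey had. Positions 2019116 and 2019129 averaged 59.2% and 59.4%, high for the run, and had values in 17 monkeys. With each position's mean subtracted first (centred run means), the run averaged 16.9% with an SD of 4.3 points. The levels of single monkeys that follow are not centred. Monkeys with like levels at the 9 positions stood at low and at high levels here. Among those high at the 9 positions, right 3, with 96.2%, stood at 9.4% in the 19-position run, and right 2, with 90.9%, at 21.1%. Among those low at the 9 positions, right 9, with 2.11%, stood at 8.2% and left 7, with 2.67%, at 23.2%. In each group the monkeys named are the lowest and the highest of the 19-position run. Right 9 is the library that stood apart, and the next lowest of its group, right 8, stood at 9.3%. No correlation between the 2 runs was computed, so a link between them was not tested.

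Next to the control region, on its H19 side, a run of 18 positions at chr11:2018554-2018763 was high and even. It averaged 74.9% ± 2.55 (SD, n = 23), from 67% in right 8 to 80.1% in left 4. Its positions had means from 4% to 93.3%, so the run mean joined low and high sites. Farther out, a run of 5 positions at chr11:2015311-2015442 averaged 44% ± 13.6 (SD, n = 21). It ranged from 20% in right 9 to 78.2% in left 4 with a median of 43.2%, and was the third most variable of the 39 runs with a level in at least 20 monkeys. The other 2 runs of this stretch were steadier. The 6 positions at chr11:2011092-2011239 averaged 48.4% ± 5.41 (SD, n = 21) and the 4 at chr11:2014940-2015097 averaged 61.4% ± 5.94 (SD, n = 22).

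**Figure D3:**
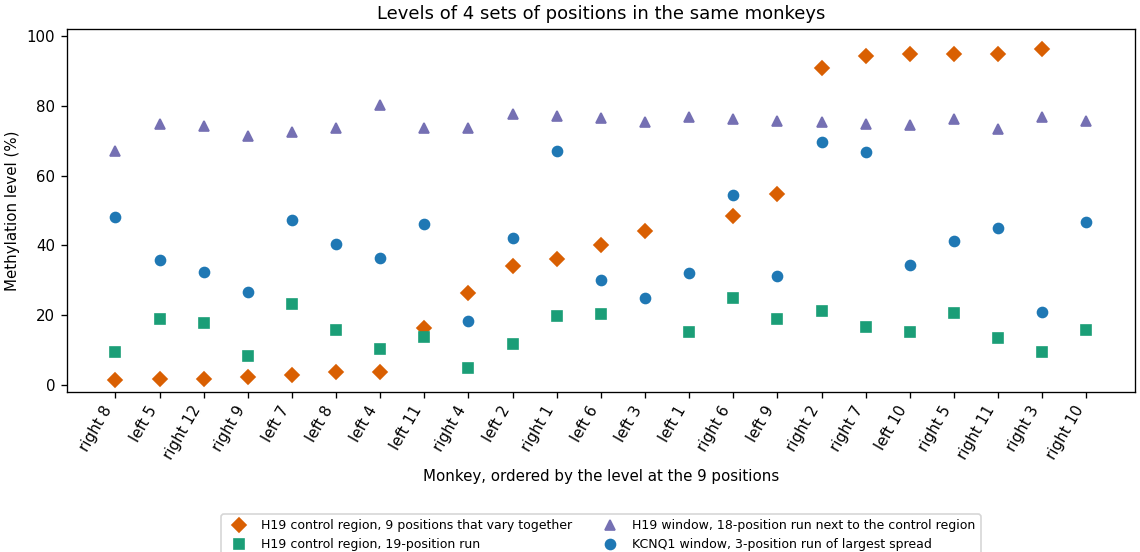
Methylation level (%) of 4 sets of positions in each monkey, with monkeys ordered by their level at the 9 positions of the H19 control region; left 1 and right 10 have no point for the 9. The 9 positions climb from 1.33% to 96.2%, the 19-position run stays between 4.9% and 24.8%, the 18-position run between 67% and 80.1%, and the 3-position run of the KCNQ1 window between 18.3% and 69.7%.

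The IGF2 side held the most evenly unmethylated stretch of the H19 window. The run with the most positions there, 36 at chr11:2160450-2160565, averaged 1.37% ± 0.748 (SD, n = 23). It lay between 0.722% and 3.69%, the highest level being that of right 9. The runs of 18 positions at chr11:2162068-2162192 and of 26 at chr11:2165454-2165753 averaged 2.19% ± 0.662 and 1.88% ± 0.897 (SD, n = 23 each). Closer to the control region, levels were intermediate. The run of 11 positions at chr11:2056642-2056800 averaged 48.4% ± 5.89 (SD, n = 22), and the run of 6 at chr11:2060637-2060833 averaged 50.2% ± 4.94 (SD, n = 23). Neither came from even levels over its sites: their position means ran from 1% to 94.9% and from 1.73% to 86.4%. Lower intermediate levels followed farther along. The 10 positions at chr11:2118866-2119038 averaged 32.4% ± 3.86 and the 10 at chr11:2155376-2155522 averaged 32.1% ± 7.78 (SD, n = 22 each). The 3 positions nearest the control region on this side, at chr11:2031890-2032010, stood lower, at 19.4% ± 3.22 (SD, n = 23).

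In the KCNQ1 window below the KvDMR, the run with the largest spread was 3 positions at chr11:2583534-2583611. It averaged 40.8% ± 14 (SD, n = 23), with 18.3% in right 4, a median of 40.3% and 69.7% in right 2. Right 1 stood at 67% and right 7 at 66.7%, and the fourth highest monkey, right 6, at 54.3%. The 3 positions moved almost as 1 unit. Of the spread of their values around each position's mean, 97.7% lay between monkeys, and of the 1659 other runs of 3 positions with at least 20 monkeys, 2 had a larger share. In the 12-position run of the H19 control region this share was 75.4%, with its 3 low positions included. The median over the 39 member runs with at least 20 monkeys was 26.4%, against 18.6% over the 25397 other runs. This share falls as a run holds more positions, and both sets have a median of 10 positions. The run with the most positions below the KvDMR, 23 at chr11:2560987-2561230, averaged 22.2% ± 3.66 (SD, n = 23) and ranged from 14.5% to 30.9%. Closest to the KvDMR from this side lay 5 positions at chr11:2675216-2675384, with 38.3% ± 9.38 (SD, n = 18). The lowest run of this stretch was 14 positions at chr11:2612674-2612800, with 4.53% ± 1.65 (SD, n = 23), and the highest was 5 positions at chr11:2584524-2584630, with 54.2% ± 5.39 (SD, n = 21). That highest run neighbours the 3-position run, in which the monkeys were spread more widely.

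Beyond the KvDMR high and low runs were mixed, and the runs at the far end were low. The highest run, 14 positions at chr11:2734943-2735106, averaged 82.9% ± 2.97 (SD, n = 22). A run of 22 positions at chr11:2753826-2753943 averaged 70.9% ± 8.89 (SD, n = 23), from 47.2% in right 12 to 84.5% in right 9, with 65.5% of its spread between monkeys. Without those 2 monkeys at its ends, the run still held levels from 58.1% in left 11 to 81.1% in left 3. At the far end, 75 positions at chr11:2905455-2906085, the run with the most positions in either window, averaged 1.37% ± 0.925 (SD, n = 23). It ranged from 0.68% to 4.62%, with the highest level in right 9. Before it, 41 positions at chr11:2890369-2890706 averaged 5.01% ± 1.34 (SD, n = 22). The neighbouring 14 positions at chr11:2906613-2906725 averaged 1.29% ± 0.591 (SD, n = 23). The runs of 75 and 14 positions were the last before the window's end, in which the rule places CDKN1C. A pair of runs had wide spreads but levels in fewer than 20 monkeys and were not tested. The first, 11 positions at chr11:2803014-2803131, averaged 57.2% ± 10.7 (SD, n = 19). The second, 3 positions at chr11:2791719-2791922, averaged 28.7% ± 10.1 (SD, n = 19). Its spread came from right 9 at 0% and right 10 at 1%. Every other monkey with a level lay between 27.3% and 35.3%. Its position means ran from 0.105% to 88.2%.

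The 39 member runs with at least 20 monkeys had a median SD of 4.94 points, against 3.25 over the 25397 other runs, whose levels differ: the median level was 29.2% in the members and 39.3% in the others. At intermediate levels the medians lay closer. The 25 member runs with a mean between 20% and 80% and at least 20 monkeys had a median SD of 5.56 points, against 5.01 over the 13869 other runs of that level. Without right 9 and left 3 these medians were 5.56 and 4.52. An SD of 10 points or more was reached by 3 of the 25 (12%) and by 10.9% of the other runs. The widest spreads in the windows thus belonged to a few runs, the 12-position run of the H19 control region foremost.

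**Figure D4:**
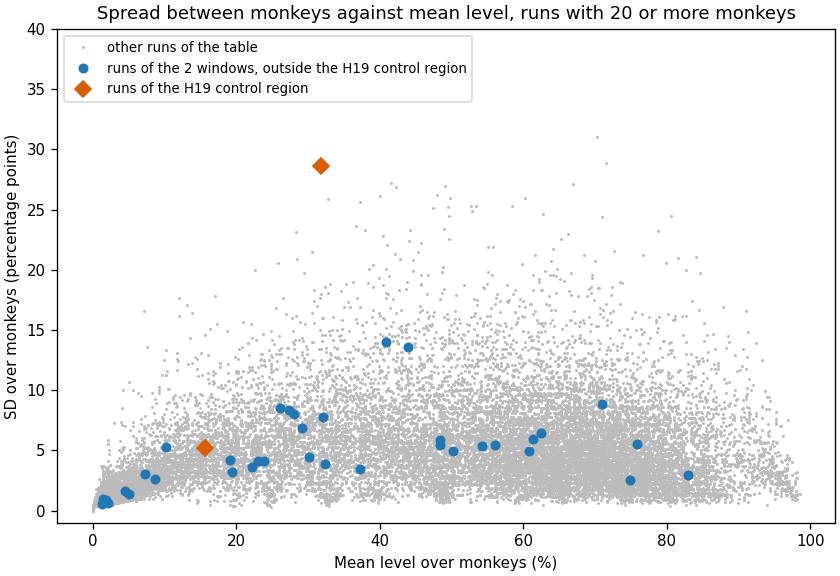
SD over monkeys (percentage points) against mean level (%) for runs with a level in at least 20 monkeys, with other runs of the table as grey points. The 12-position run of the H19 control region stands at an SD of 28.6, and the 2 next member runs at 14 and 13.6.

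Intermediate run means joined low and high sites in part of the runs. Of the 31 member runs with an intermediate mean, 14 (45.2%) held both a position under 5% and one over 80%, against 59.4% of the other intermediate runs. These 31 runs held 309 positions, of which 64 (20.7%) were under 5%, 161 (52.1%) between 20% and 80%, and 59 (19.1%) over 80%. In the 18830 other intermediate runs these shares were 15.5%, 38% and 38.3%. A run whose positions all lay between 20% and 80% was found 2 times among the 31 (6.45%) and 494 times among the others (2.62%). Positions 1 bp apart mostly had like levels. Over the 200 such pairs among the members the median difference in mean level was 1.48 points, against 0.972 points over 126217 other pairs, and 19 pairs (9.5%) differed by more than 20 points, against 9.14% elsewhere. Sites where macaque and human sequence differ were not identified here.

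The design relates methylation to anxious temperament as a continuous trait and adjusts for age. No member was called for the score. Positions were tested with limma where at least 20 monkeys had a value and the range was at least 10 points, which kept 344 of the 616. Of these, 0 passed at an adjusted p under 0.05, as in the whole table (0 of 192151, 0%). Unadjusted, 8 members had a p under 0.05, or 2.33%, beside a background of 3.12% of all tested positions. The median slope was 0.27 points per score unit over the members and 0.09 over all tested positions. Of the 47 runs, 34 could be tested, since 8 had too few monkeys and 5 a range under 5 points. None passed, with a background of 0%, and 1 had an unadjusted p under 0.05, beside a background of 3.15%.

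The 12-position run of the H19 control region had the steepest slope of the 34 runs, -13.57 ± 7.69 points per score unit (SE, n = 21; limma p = 0.0924, adjusted p = 1). Its slope ran from -19.42 to -10.09 when single monkeys were left out. The 19-position run had a slope of 1.25 ± 1.48 (SE, n = 22; limma adjusted p = 1). With single monkeys left out it ran from -0.2, without right 4, to 2.11, and it was 0.46 with centred run means and 0.13 with gaps of up to 500 bp. The run with the smallest p was 12 positions at chr11:2884336-2884446, beyond the KvDMR, which averaged 30.1% ± 4.44 (SD, n = 23) between 21.7% in right 2 and 39.5% in right 12. Its slope was 2.81 ± 1.11 (SE, n = 23; limma p = 0.0188, adjusted p = 1). The 28 positions at chr11:2813188-2813346 followed with 2.56 ± 1.37, the 11 at chr11:2056642-2056800 with 2.38 ± 1.63 and the 5 at chr11:2879585-2879670 with -1.44 ± 1.18.

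**Figure D5:**
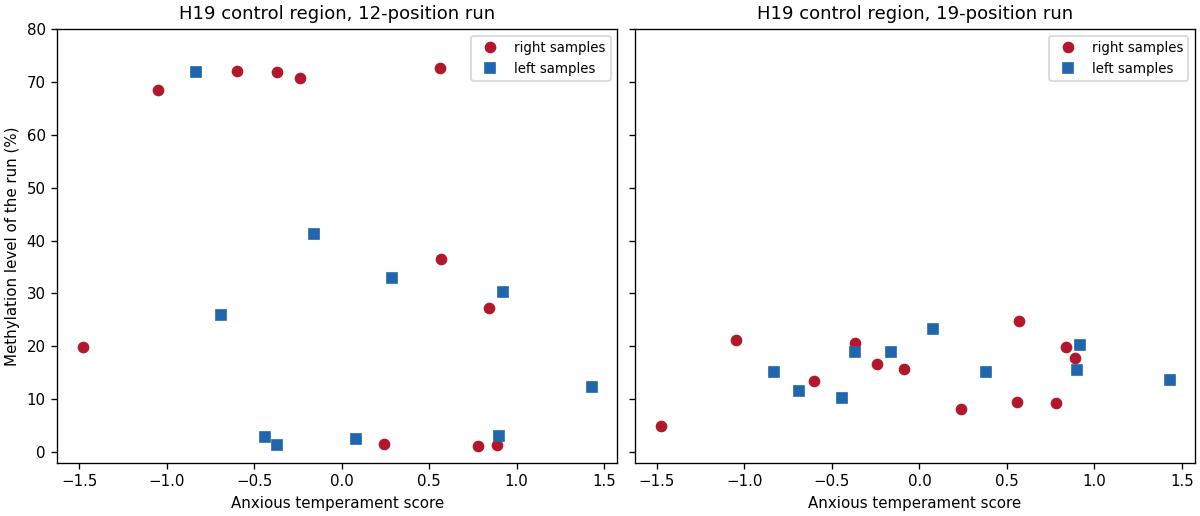
Methylation level (%) of the 12-position and the 19-position run of the H19 control region against the anxious temperament score, with 1 point per monkey, circles for right and squares for left samples. Levels of the 12-position run spread from 1.1% to 72.7% and those of the 19-position run from 4.9% to 24.8%.

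Among single positions, the smallest p for the score was at chr11:2864996, beyond the KvDMR, where the level averaged 94.4% ± 7.24 (SD, n = 21) and the slope was 5.36 ± 1.8 points per score unit (SE; limma p = 0.00673, adjusted p = 1). The next base, chr11:2864997, averaged 95.4% ± 4.71 (SD, n = 22) and had a slope of 0.57 ± 1.44. The 4 following positions were 2612687, with a slope of -4.18 ± 1.66, 2884336 with 5.96 ± 2.46, 2735059 with 2.39 ± 1.01 and 2014940 with -2.83 ± 1.23, each with a limma adjusted p of 1. A range of 100 points over monkeys was reached at 8 member positions. They included 2021961, 2022020 and 2022022 of the 12-position run, and the first base of the 5-position run, 2015311, which averaged 39.8% ± 23.9 (SD, n = 21). At 2056643, also with a range of 100 points, 18 monkeys had a value and no test was made.

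Right and left samples were compared with score and age in the model. No member position (0 of 344, background 0%) and no member run (0 of 34, background 0%) was called by limma. Unadjusted, 7 positions (2.03%, background 3.48%) and 2 runs (5.88%, background 3.35%) had a p under 0.05. The 12-position run of the H19 control region averaged 40.3% ± 31.5 in right samples (SD, n = 11) and 22.4% ± 22.8 in left samples (SD, n = 10). The fitted difference, right minus left, was 16.22 ± 11.14 points (SE; limma p = 0.161, adjusted p = 0.988), within the spread of both groups. The 3-position run of the KCNQ1 window averaged 44.8% ± 17.7 in right samples (SD, n = 12) and 36.4% ± 6.92 in left samples (SD, n = 11), with a fitted difference of 8.34 ± 5.69 points (SE; limma p = 0.157, adjusted p = 0.988). The smallest p of a run was at 7 positions below the KvDMR, chr11:2590779-2590906, with 26.1% ± 2.82 in right samples and 21.4% ± 4.06 in left samples (SD, n = 10 each) and a fitted difference of 4.67 ± 1.66 (SE; limma p = 0.0113, adjusted p = 0.988). Of these 7 positions, 5 averaged under 5%, and the position means ran from 0% to 82.2%. On the IGF2 side, the 10 positions at chr11:2155376-2155522 averaged 28.8% ± 7.98 in right samples (SD, n = 12) and 36.1% ± 5.63 in left samples (SD, n = 10), with a difference of -7.04 ± 3.03 (SE; limma p = 0.0305, adjusted p = 0.988). The positions behind these means differed between monkeys: 2155377 and 2155399, with means of 45.1% and 65.5%, had values in 10 right and 9 left samples. At 2155398, with values in 12 right and 10 left samples, the means were 59.6% and 70.2%. The third run, 6 positions at chr11:2011092-2011239, differed by 4.52 ± 2.19 points, and its position means ran from 0% to 93.7%. The position with the smallest p, chr11:2014940 on the H19 side, averaged 2.75% ± 3.19 in right samples (SD, n = 12) and 7.3% ± 5.12 in left samples (SD, n = 10; limma adjusted p = 0.93). The next 2 positions, 2864997 and 2011120, differed by 5.7 ± 1.77 and 9.56 ± 3.09 points, each with a limma adjusted p of 0.93.

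Age, the covariate of the design, also gave no called member. Of 344 positions 0 were called by limma, beside a background of 0.0531% of all tested positions, and 9 had an unadjusted p under 0.05 (2.62%, background 4.06%). Of 34 runs 0 were called (background 0.00524%), and 0 had an unadjusted p under 0.05 (background 5.57%). The smallest p of a run belonged to 26 positions at chr11:2818182-2818372, beyond the KvDMR, which averaged 26.1% ± 8.56 (SD, n = 22) and had a slope of 15.17 ± 7.69 points per year (SE; limma p = 0.0613, adjusted p = 0.921). The run at chr11:2884336-2884446 followed with -7.02 ± 3.75 and that at chr11:2015311-2015442 with 21.14 ± 12.33. Among positions, 2818366 and 2818244 of the 26-position run had slopes of 34.26 ± 10.71 and 34.34 ± 12.56 points per year (limma adjusted p = 0.675 and 0.955).

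At chr11:2846002 the fit gave an age slope of -33.17 ± 11.07 per year in percentage points (SE, n = 23), with a limma adjusted p of 0.782. The level was 47% in left 1, the oldest monkey at 2.13 years, and 46% in right 9, and between 86% and 100% in each of the other 21. Without right 9 the slope was -37.47 ± 6.23 and this position was called (limma adjusted p = 0.0196), 1 of 330 member positions tested in that fit, beside a background of 0.0624% (117 of 187506). It was also the 1 called of 346 members without both right 9 and left 3, beside a background of 0.0898%, with a slope of -37.97 ± 6.29 (SE, n = 21; limma adjusted p = 0.0198). Without both right 9 and left 1 it was -8.13 ± 7.03 (SE; limma p = 0.259, adjusted p = 0.997).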

How the data were processed

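Genomic DNA of 23 monkeys was digested with MspI, bisulfite-converted and sequenced, with 1 library per monkey, per the labels' protocols. Bismark 0.11.1 and the human build hg19 are named in the submitters' processing notes. The authors deposited methylation levels as a fraction from 0 to 1, rounded to 2 decimals. The sources used here give neither a coverage filter nor the handling of strands. Positions 1 bp apart were counted as separate positions, and whether they are both strands of a CpG was not examined. The reads are from macaque and the coordinates human, so levels are least certain where the genomes differ, and a cytosine replaced by thymine can appear unmethylated.

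Fractions were multiplied by 100. No read counts were at hand, so depth is unknown and no interval was computed. The fits used limma 3.58.1 (R 4.3.3, with version 1.17.8 of the data.table package) over all positions and runs, with score and age as terms, or score, age and hemisphere. The variance step used a trend on the mean level, and each fit dropped missing values. Tests were 2-sided, with the Benjamini-Hochberg adjustment over all tested units. A unit was tested if 20 monkeys or more had a value and its range reached 10 points (positions) or 5 points (runs). The fit was tested on simulated data with known slopes and checked against limma itself. Run levels needed values at 50% of the positions, since a mean over fewer can shift with the positions present. Figures were drawn with matplotlib 3.10.9 in Python 3.11.15.

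The windows, the named runs and the tests were chosen with earlier results of these data known. Named were the runs inside the control regions, the run with the most positions in each other stretch, the 5 runs with the largest SD, and the runs and positions with the smallest p (5 for score, 3 for age and 3 for hemisphere) or the largest range (5, from ties). Further runs and positions were named after their values were seen. Planned comparisons with the KvDMR were not made, since no position used here lay in it. No hg19 annotation or sequence was used, so runs carry coordinates only. The names H19 side, IGF2 side and beyond the KvDMR give the place relative to the control regions. Alternatives are given in the closing section.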

Additional observations from a re-analysis of the deposited data

How the results depend on the processing

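No member position or run was called for score or hemisphere under the alternatives run, and no run for age. These were a logit scale, no variance trend, hemisphere or identifier series as a covariate, a range of at least 20 points, complete positions, run means with no minimum share of positions, centred run means, gaps of at most 100 or 500 bp, and right 9 and left 3 or left 1 omitted. Leaving out each other monkey in turn was chosen after seeing the data. Called age positions numbered 1 without right 9 and left 3 (background 0.0898%), and 0 to 1 when each monkey was omitted in turn (1 without right 9, background 0.0624%), each time chr11:2846002. The score slope of the 19-position H19 control run changed sign without right 4 (-0.2) with a range of -0.2 to 2.11 over omissions of 1 monkey, and the cause was not tested. Unadjusted counts for score, age and hemisphere, 8, 9 and 7 positions as reported, ran from 3 to 13, 2 to 14 and 2 to 13 over the alternatives other than leaving out 1 monkey, and from 5 to 15, 7 to 14 and 6 to 12 with single monkeys left out. For runs, reported as 1, 0 and 2, they were 1 to 2, 0 to 2 and 1 to 4, and 1 to 2, 0 to 2 and 1 to 3 with single monkeys left out. At positions with a value in all monkeys, mean levels were 74.9% on the H19 side, 10% in the control region, 5.36% on the IGF2 side, 16.1% below the KvDMR and 22.6% beyond it, because fewer positions entered (18 of 33, 8 of 31, 88 of 129, 36 of 81 and 170 of 342). The 12-position H19 run has no complete position. Depth is unknown and its effect could not be examined. The KvDMR slope, the paired difference and the correlation with the KvDMR could not be computed. No paired analysis was possible because right and left samples come from different monkeys and their numbers are only names.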
